A study of Solanum lycopersicum with 12 samples.

Results

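Catalases, ascorbate peroxidases and superoxide dismutases are the enzymes through which leaf cells dispose of reactive oxygen. Superoxide dismutase turns superoxide into hydrogen peroxide and oxygen, catalase splits hydrogen peroxide into water and oxygen, mainly in peroxisomes, and ascorbate peroxidase reduces hydrogen peroxide with ascorbate as the electron donor. In green leaves much of the hydrogen peroxide handled by catalase comes from photorespiration, whereas ascorbate peroxidases work in several compartments, with ascorbate then recycled by reductases. The genes described here are 10 loci of tomato, 3 for catalase, 3 for ascorbate peroxidase and 4 for superoxide dismutase, out of 33976 genes in the table. They were chosen by enzyme class from a list of locus identifiers, with earlier results of these data known. The deposited table pairs the loci with no product names, so each locus is given its class from that list, and no isoform, compartment or metal cofactor is assigned to any of them.

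Leaf RNA was sequenced from *Solanum lycopersicum* cv. Red Setter in 12 libraries, 4 from wild type, 4 from *slmyb60Cr1* and 4 from *slmyb60Cr2*. Both edited lines are homozygous, Cas9-free T2 lines with CRISPR/Cas9 deletions in *SlMYB60*, a MYB transcription factor gene, and each line goes back to a single editing event. Every replicate pooled leaf discs of 4 plants, so the replicates differ by plants and by any difference in handling. All groups carry the same label of irrigation stopped for 14 days, whereas the methods mention no water deficit for the plants used for RNA. The values are TPM, transcript abundances scaled to transcript length and to the same total in every library, so levels can be set side by side between genes. TPM keeps no sequencing depth, and the precision of a value is therefore known only from the spread between replicates. In such whole-leaf RNA, fewer cells of a type and less RNA per cell cannot be told apart.

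*SlMYB60* (Solyc10g081490) was at 12.9, 12.3, 19.3 and 21.6 TPM in wild type replicates 1 to 4, at 1.57, 2.10, 2.78 and 2.30 TPM in *slmyb60Cr1* and at 2.19, 2.61, 3.15 and 2.87 TPM in *slmyb60Cr2*. The groups did not overlap, and each line differed from wild type with p = 0.0286 in a two-sided exact permutation test, the smallest p that 4 against 4 libraries can give. Of the leaf markers, the 3 Rubisco small subunit loci ranged from 186 to 16268 TPM over the 12 libraries. The fruit polygalacturonase locus Solyc10g080210 stood at 0 to 0.129 TPM, and the other ripening locus, Solyc09g089580, at 4.77 to 11.7 TPM. The dehydration loci Solyc02g084850 and Solyc10g078770 ranged from 3.70 to 33.7 TPM and from 0.714 to 4.15 TPM, with no difference between genotypes past the test.

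The 10 loci covered a wide range of levels in wild type leaves. Catalase Solyc12g094620 was far above the others with 4502 ± 1160 TPM (SD, n = 4), followed by ascorbate peroxidase Solyc06g005160 with 850 ± 113 TPM. Catalase Solyc02g082760 (405 ± 34.9 TPM) and superoxide dismutase Solyc06g048410 (350 ± 43.9 TPM) came next, and their wild type values overlapped. Below them lay ascorbate peroxidase Solyc06g005150 (186 ± 36.9 TPM) and the superoxide dismutases Solyc01g067740 (168 ± 37.4 TPM) and Solyc06g049080 (147 ± 13.7 TPM), whose neighbours in the order likewise overlapped. Superoxide dismutase Solyc11g066390 was expressed at 12.7 ± 5.25 TPM. The lowest levels were those of catalase Solyc04g082460 (2.90 ± 0.450 TPM) and ascorbate peroxidase Solyc09g007270 (2.17 ± 0.771 TPM), which overlapped in wild type. The edited lines kept this order except among overlapping neighbours: Solyc06g048410 passed Solyc02g082760 in both lines, and Solyc01g067740 passed Solyc06g005150 in *slmyb60Cr1*.

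The 3 classes also differed in how the transcripts were spread over their loci. Summed catalase took 3481 to 8491 TPM, or 0.348% to 0.849% of all transcripts, and Solyc12g094620 alone accounted for 89.2% to 95.5% of it. Ascorbate peroxidase summed to 821 to 1251 TPM, with 79.6% to 82.9% from Solyc06g005160. Superoxide dismutase summed to 626 to 829 TPM and was shared more evenly, as its leading locus Solyc06g048410 held 46.4% to 58.5%.

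**Figure D1:**
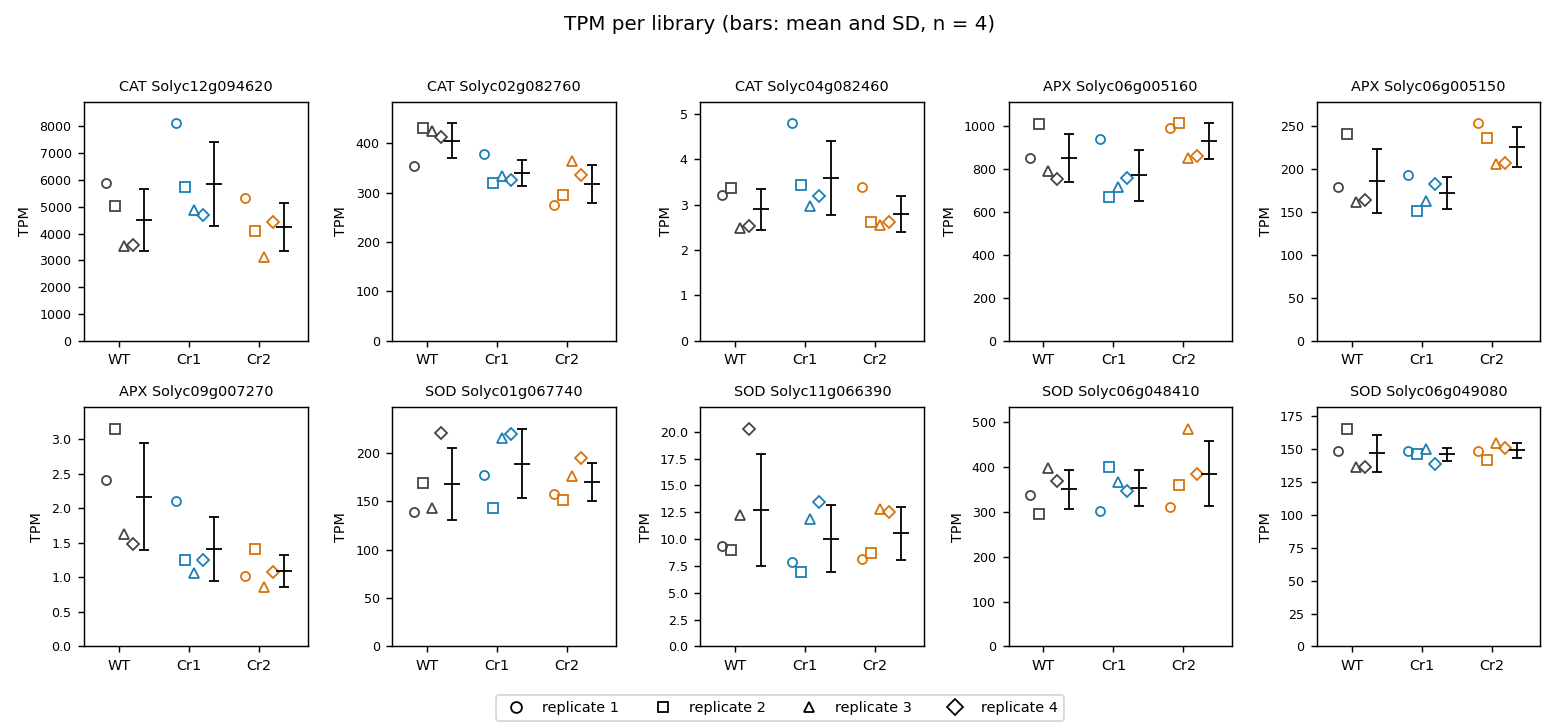
TPM (linear axis from 0) of each catalase (CAT), ascorbate peroxidase (APX) and superoxide dismutase (SOD) locus in the libraries of wild type (WT), slmyb60Cr1 (Cr1) and slmyb60Cr2 (Cr2). Open symbols are single libraries by replicate number and black bars are the mean and SD of 4 libraries. The groups overlap for every locus except Solyc09g007270 between slmyb60Cr2 and wild type and Solyc06g005150 between slmyb60Cr2 and slmyb60Cr1.

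Expression was then compared between each edited line and wild type, and between the lines, with limma on log2(TPM + 0.1) over all 21218 genes that reached 0.5 TPM in at least 4 libraries. All 10 loci passed that limit. At a Benjamini-Hochberg adjusted p below 0.05 (limma), 0 of the 10 changed in *slmyb60Cr1*, where 1.69% of all genes tested were called. Likewise 0 of 10 changed in *slmyb60Cr2*, against 7.41% of all genes, and 0 of 10 differed between the lines, against 0.509%. Without adjustment, 1, 3 and 2 of the 10 loci had p below 0.05 in these comparisons, whereas 17.1%, 23.1% and 14.5% of all genes did. No locus was estimated beyond a log2 fold change of 1 in either direction. The 95% interval of the change stayed between −1 and 1 for 9 of 10 loci in *slmyb60Cr1*, for 9 of 10 in *slmyb60Cr2* and for all 10 between the lines, the exception in both lines being Solyc09g007270. The median log2 fold change of the 10 loci was −0.05 in *slmyb60Cr1* and −0.01 in *slmyb60Cr2*, beside −0.02 and 0.04 over all genes tested.

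**Figure D2:**
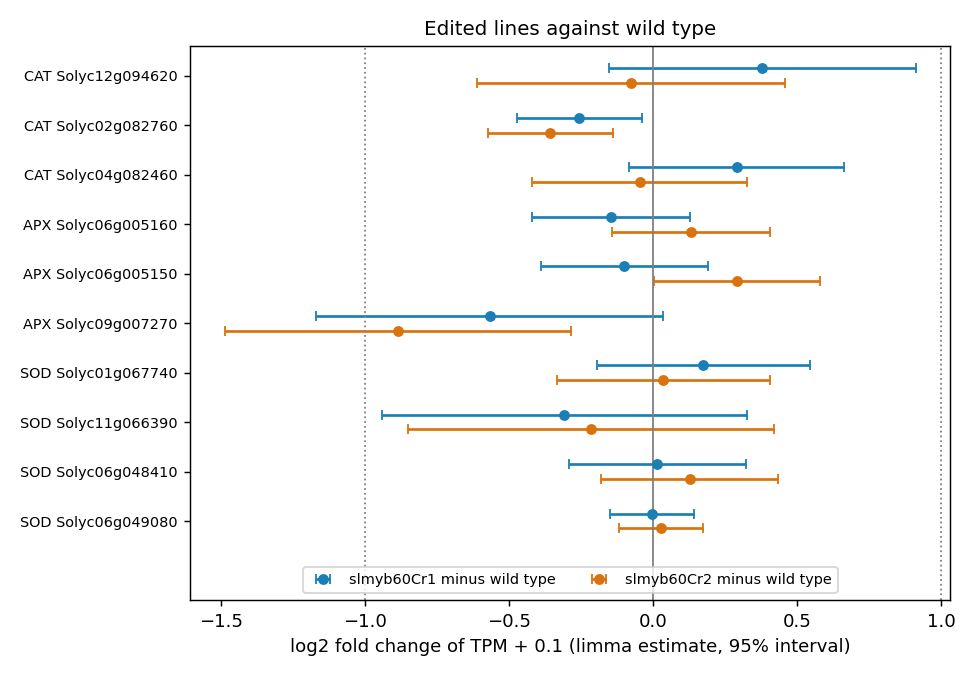
Log2 fold change of each locus in slmyb60Cr1 (blue) and slmyb60Cr2 (orange) against wild type, with points for the limma estimate on log2(TPM + 0.1), bars for the 95% interval before adjustment and dotted lines at −1 and 1. The intervals of Solyc09g007270 pass −1 and those of Solyc06g049080 are the narrowest.

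Among the catalases, the leading locus Solyc12g094620 reached 5889, 5029, 3534 and 3556 TPM in wild type replicates 1 to 4, 8107, 5742, 4890 and 4678 TPM in *slmyb60Cr1*, and 5317, 4093, 3115 and 4441 TPM in *slmyb60Cr2*. Replicate 1 was the highest library of each genotype and the groups overlapped widely. The log2 fold change was 0.38 in *slmyb60Cr1* (95% interval −0.15 to 0.91, adjusted p = 0.473, limma) and −0.08 in *slmyb60Cr2* (−0.61 to 0.46, adjusted p = 0.894). Between the lines it was −0.46 (−0.99 to 0.08, adjusted p = 0.423), with the groups overlapping as well.

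Catalase Solyc02g082760 came closest to the threshold. It was at 354, 430, 425 and 412 TPM in wild type, 379, 320, 334 and 325 TPM in *slmyb60Cr1*, and 276, 296, 363 and 335 TPM in *slmyb60Cr2*. All wild type libraries but replicate 1 lay above all libraries of both lines. Mean expression in *slmyb60Cr1* and *slmyb60Cr2* amounted to 83.7% and 78.3% of wild type, with log2 fold changes of −0.26 ± 0.10 (SE, adjusted p = 0.213, limma) and −0.36 ± 0.10 (adjusted p = 0.0531). Of the 12 fits that left out a library, 9 did not bring the second value past the threshold. The other 3 did, with adjusted p = 0.0457 without wild type replicate 1, 0.0429 without *slmyb60Cr1* replicate 1 and 0.0325 without *slmyb60Cr2* replicate 3 (limma). Over all 23 alternatives, 4 brought it past, and the adjusted p reached 0.139. Within a library, Solyc12g094620 exceeded Solyc02g082760 by 8.31 to 16.6 times in wild type, 14.4 to 21.4 times in *slmyb60Cr1* and 8.58 to 19.3 times in *slmyb60Cr2*.

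The lowly expressed catalase Solyc04g082460 was at 3.21, 3.36, 2.49 and 2.54 TPM in wild type, 4.79, 3.43, 2.98 and 3.18 TPM in *slmyb60Cr1*, and 3.38, 2.61, 2.56 and 2.62 TPM in *slmyb60Cr2*. The groups overlapped, with log2 fold changes of 0.29 (95% interval −0.08 to 0.66, adjusted p = 0.428, limma) and −0.05 (−0.42 to 0.33, adjusted p = 0.907).

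Ascorbate peroxidase Solyc06g005160, the highest of the 3 loci, was at 850, 1008, 788 and 755 TPM in wild type, 938, 669, 714 and 757 TPM in *slmyb60Cr1*, and 989, 1012, 852 and 862 TPM in *slmyb60Cr2*. Its groups overlapped, with log2 fold changes of −0.15 (95% interval −0.42 to 0.13) and 0.13 (−0.14 to 0.41) against wild type. Solyc06g005150, which has the neighbouring identifier, was at 179, 240, 161 and 164 TPM in wild type, 193, 150, 162 and 182 TPM in *slmyb60Cr1*, and 253, 236, 206 and 207 TPM in *slmyb60Cr2*. Here all libraries of *slmyb60Cr2* lay above all of *slmyb60Cr1*, as they did for 7.79% of all genes tested, and the log2 difference of 0.39 ± 0.13 (SE) did not pass the test (adjusted p = 0.201, limma). Against wild type the change in *slmyb60Cr2* was 0.29 (95% interval 0.00 to 0.58, adjusted p = 0.211), and wild type replicate 2 lay within the range of the line.

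The third ascorbate peroxidase, Solyc09g007270, had the lowest level of all and the largest estimated change. It was at 2.42, 3.15, 1.63 and 1.48 TPM in wild type, 2.10, 1.25, 1.06 and 1.25 TPM in *slmyb60Cr1*, and 1.02, 1.41, 0.865 and 1.08 TPM in *slmyb60Cr2*. All libraries of *slmyb60Cr2* lay below all of wild type, as was the case for 4.96% of all genes tested, and the mean of the line was 50.4% of the wild type mean. The log2 fold change was −0.89 (95% interval −1.49 to −0.28, adjusted p = 0.0766, limma) in *slmyb60Cr2* and −0.57 (−1.17 to 0.03, adjusted p = 0.326) in *slmyb60Cr1*. The value in *slmyb60Cr2* passed the threshold under 2 of 23 alternatives. These were quantile normalization (−1.06, adjusted p = 0.0485, limma) and the replicate number as a block (−0.89, adjusted p = 0.0420). None of the 12 fits that left out a library called it, and over all alternatives the adjusted p reached 0.187. On the log2(TPM + 0.1) scale the pseudocount of 0.1 TPM slightly shrinks the change of so low a gene. In the comparison of *slmyb60Cr1* with wild type, no locus had groups that did not overlap, whereas 10.5% of all genes tested did.

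For the superoxide dismutases, no difference between genotypes passed the test (limma adjusted p of 0.647 or more in all comparisons). Solyc06g048410 was at 337, 296, 398 and 370 TPM in wild type, 303, 399, 367 and 346 TPM in *slmyb60Cr1*, and 311, 360, 485 and 385 TPM in *slmyb60Cr2*, with overlapping groups and log2 fold changes of 0.01 (95% interval −0.29 to 0.32) and 0.13 (−0.18 to 0.43). Solyc01g067740 was at 139, 169, 144 and 221 TPM in wild type, 177, 143, 215 and 220 TPM in *slmyb60Cr1*, and 158, 151, 177 and 195 TPM in *slmyb60Cr2*, with overlapping groups and log2 fold changes of 0.17 (−0.20 to 0.54) and 0.04 (−0.33 to 0.41). The steadiest locus was Solyc06g049080, whose highest library exceeded its lowest by only 1.21-fold. It was at 149, 165, 136 and 136 TPM in wild type, 149, 146, 150 and 139 TPM in *slmyb60Cr1*, and 149, 141, 155 and 151 TPM in *slmyb60Cr2*. For this gene the intervals of −0.15 to 0.14 and −0.12 to 0.17 leave room only for small changes on the log2 scale.

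Superoxide dismutase Solyc11g066390 varied with the replicate number more than with genotype. It was at 9.32, 8.99, 12.2 and 20.3 TPM in wild type, 7.88, 6.98, 11.8 and 13.5 TPM in *slmyb60Cr1*, and 8.11, 8.70, 12.9 and 12.5 TPM in *slmyb60Cr2*. Replicates 1 and 2 thus spanned 6.98 to 9.32 TPM and replicates 3 and 4 spanned 11.8 to 20.3 TPM, with no overlap in any genotype. A limma F test of the replicate number called this locus (adjusted p = 0.0325) and none of the other 9, where 3.59% of all genes tested were called. Without adjustment, 4 of the 10 loci had p below 0.05 in this test, beside 22.7% of all genes. The call held in 2 of the 12 fits that left out a library (without wild type replicate 3 or *slmyb60Cr2* replicate 4), and the adjusted p ranged from 0.0197 to 0.111 over all 12, in which 0 to 1311 genes were called. Replicates 3 and 4 lay above 1 and 2 in all genotypes for 4.22% of all genes tested and below them for 10.8%. The changes of Solyc11g066390 between genotypes were −0.31 (95% interval −0.94 to 0.33) in *slmyb60Cr1* and −0.22 (−0.85 to 0.42) in *slmyb60Cr2*.

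Of the marker genes, 5 also followed this split in every genotype, a split chosen after the values had been seen. Among all genes tested, 4.22% were higher and 10.8% lower in replicates 3 and 4 of every genotype. None of the 5 markers passed the test of the replicate number (adjusted p from 0.0534 to 0.0906, limma). The dehydration loci did not follow the split throughout. Replicates 1 and 2 overlapped with 3 and 4 for Solyc02g084850 in both edited lines and for Solyc10g078770 in wild type. The fruit locus Solyc10g080210, near 0 TPM, overlapped in every genotype. All 3 Rubisco small subunit loci were higher in replicates 3 and 4 than in 1 and 2 of every genotype, as for Solyc02g085950 with 2067 to 8719 TPM in replicates 1 and 2 and 7175 to 16268 TPM in replicates 3 and 4. The senescence locus Solyc08g080090 was lower in replicates 3 and 4, with 178 to 422 TPM against 468 to 1227 TPM, and the ripening locus Solyc09g089580 was lower there in every genotype as well. Catalase Solyc12g094620 likewise had lower values in replicates 3 and 4 of wild type and *slmyb60Cr1*, with no overlap. In *slmyb60Cr2* its mean was 3778 TPM in replicates 3 and 4 and 4705 TPM in replicates 1 and 2, with overlapping libraries, and the locus did not pass the test of the replicate number (adjusted p = 0.0915, limma). Of the 36 further genes of the pathway that were tested, 2 (5.56%) passed the test of the replicate number, beside 3.59% of all genes tested. These were the further superoxide dismutase Solyc08g079830 (adjusted p = 0.0442, limma) and the ascorbate synthesis locus Solyc01g097340 (adjusted p = 0.0452). The part of leaf age or state in the levels of these enzymes was not tested.

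**Figure D3:**
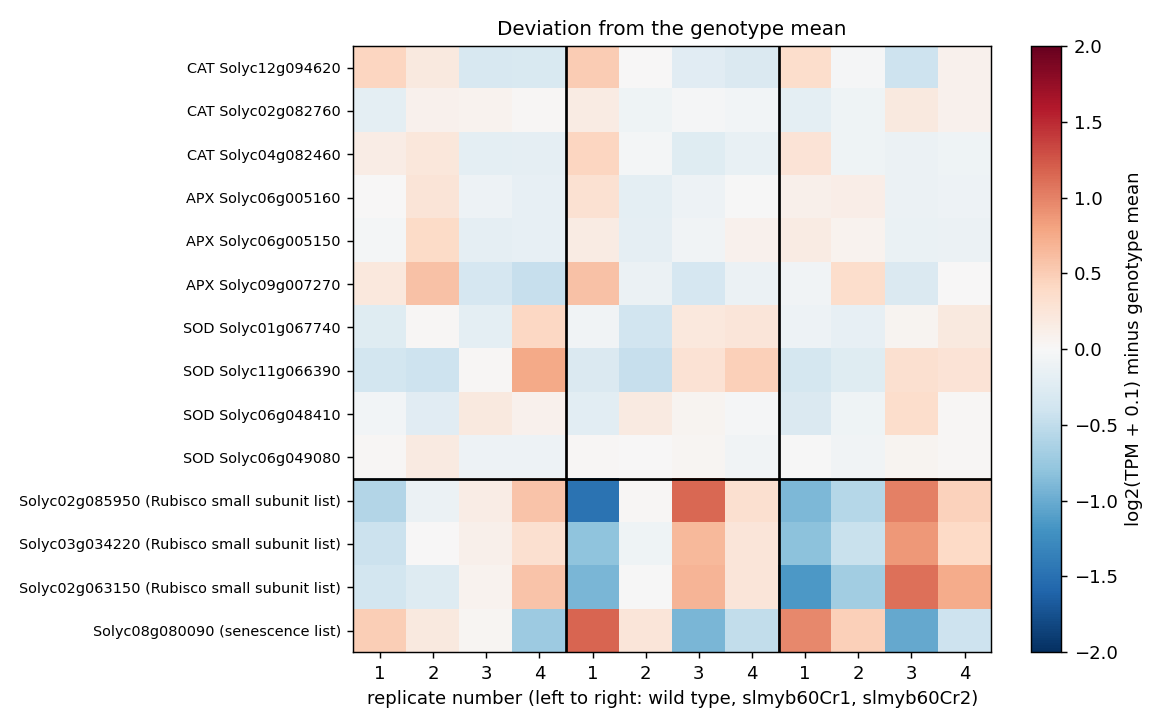
Deviation of log2(TPM + 0.1) from the mean of the genotype, by locus (rows) and library (columns, replicates 1 to 4 of wild type, slmyb60Cr1 and slmyb60Cr2 from left to right), with red for higher and blue for lower values. Superoxide dismutase Solyc11g066390 and the Rubisco small subunit loci are higher in replicates 3 and 4, and the senescence locus Solyc08g080090 is lower there.

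The estimated changes were also taken within replicates 1 and 2 and within replicates 3 and 4, a split chosen after the values had been seen. The direction was the same in both for 7 of 10 loci in each of the 3 comparisons, beside 59.0% of all genes tested for *slmyb60Cr1*, 64.6% for *slmyb60Cr2* and 65.6% between the lines, so the share of the members was near that of all genes. For Solyc09g007270, the log2 fold change in *slmyb60Cr2* was −1.14 in replicates 1 and 2 and −0.63 in replicates 3 and 4. For Solyc02g082760 it was −0.45 and −0.26.

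Next, the joint variation of the loci over the 12 libraries was examined. Of the 45 pairs, 2 had a Pearson correlation that passed the Benjamini-Hochberg adjustment in a permutation test with 100000 permutations. The permutations shuffled all 12 libraries freely, without regard to genotype or replicate number. A shift that 2 loci share by either one therefore also counts towards these p-values. Catalases Solyc12g094620 and Solyc04g082460 had r = 0.93 and rho = 0.93 (unadjusted p = 2e-05 and 4e-05, adjusted p = 0.0009 and 0.0018), although the first exceeded the second by 1217 to 1837 times in every library. Their r was 0.90 without the 2 libraries farthest from the median, 0.95 within replicates 1 and 2 and 0.80 within replicates 3 and 4 (n = 6 each). Salmon divides reads between transcripts of like sequence, and whether the low locus received reads of the high one was not tested.
The neighbouring ascorbate peroxidases Solyc06g005160 and Solyc06g005150 had r = 0.92 and rho = 0.90 (unadjusted p = 8e-05 and 0.00023, adjusted p = 0.0018 and 0.00517, permutation test). Their r was 0.88 without the 2 farthest libraries, 0.93 within replicates 1 and 2 and 0.84 within replicates 3 and 4. The first exceeded the second by 3.91 to 4.89 times over all 12 libraries, and shared reads were not tested here either. The other loci had no partner past the adjustment. The highest positive correlation among them joined superoxide dismutases Solyc01g067740 and Solyc11g066390 (r = 0.69, rho = 0.62, unadjusted p = 0.0121 and 0.0354, adjusted p = 0.121 and 0.266, permutation test), with r = 0.48 without the 2 farthest libraries, −0.02 within replicates 1 and 2 and 0.43 within replicates 3 and 4. The most negative r over all pairs, between catalase Solyc12g094620 and superoxide dismutase Solyc06g048410, did not pass either (r = −0.70, rho = −0.63, unadjusted p = 0.0114 and 0.0329, adjusted p = 0.121 and 0.266, permutation test), with r = −0.41 without the 2 farthest libraries, −0.30 within replicates 1 and 2 and −0.78 within replicates 3 and 4. The most negative rho joined Solyc04g082460 and Solyc11g066390 (rho = −0.75, adjusted p = 0.108, permutation test). Solyc02g082760 and Solyc09g007270 were each most like the other (r = 0.58, rho = 0.59, adjusted p = 0.252 for r, permutation test). For deviations from the genotype means, however, the r of this pair was 0.03. Solyc09g007270 was then most like Solyc06g005160 (r = 0.89). The pairs past the adjustment kept r = 0.90 (catalases) and 0.91 (ascorbate peroxidases) on these deviations, for which no p was computed. Solyc06g048410 was most like Solyc11g066390 (r = 0.39, adjusted p = 0.541) and Solyc06g049080 was most like Solyc06g005150 (r = 0.49, adjusted p = 0.427).

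**Figure D4:**
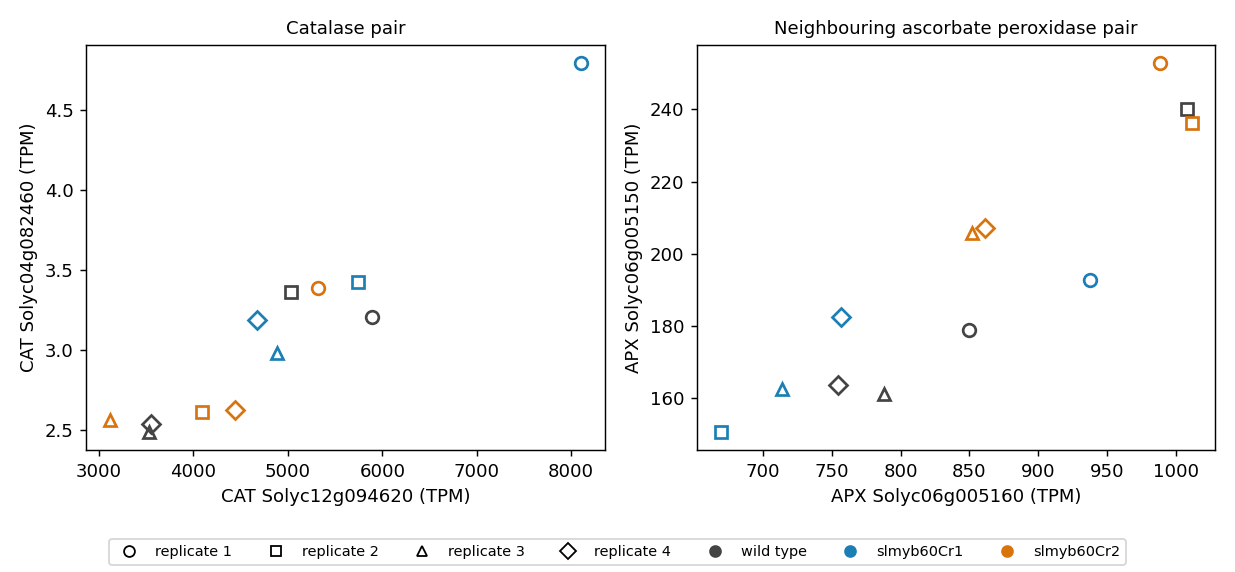
TPM of the pairs of loci that varied together, catalases Solyc12g094620 (horizontal axis) and Solyc04g082460 on the left and ascorbate peroxidases Solyc06g005160 (horizontal axis) and Solyc06g005150 on the right, on linear axes that do not start at 0. Each symbol is 1 of 12 libraries, with colour for genotype and shape for replicate number, and both pairs rise together (r = 0.93 and 0.92 on the log2 scale).

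Around these enzymes, 37 loci of the same pathway were followed from a list by class. They were further ascorbate peroxidases (5) and superoxide dismutases (5), the reductases that recycle ascorbate and glutathione, glycolate oxidases, which release hydrogen peroxide in photorespiration, glutathione peroxidases, peroxiredoxins and enzymes of ascorbate synthesis. Of the 36 that were tested, 0 rose and 2 fell in *slmyb60Cr1* at an adjusted p below 0.05 (limma). In *slmyb60Cr2* 1 rose and 2 fell, and 0 differed between the lines. Over all genes tested, 0.806% rose and 0.881% fell in *slmyb60Cr1*, and 5.24% rose and 2.18% fell in *slmyb60Cr2*. Between the lines 0.509% of all genes differed. At an unadjusted p below 0.05 (limma) there were 8, 10 and 4 of the 36 in these comparisons, beside 17.1%, 23.1% and 14.5% of all genes. The median log2 fold change of the 36 was −0.07 and −0.04 in the lines.

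Both loci that fell belong to the 9 of ascorbate synthesis, the route to the electron donor of ascorbate peroxidase. Solyc06g073320 was at 784, 1078, 1098 and 1132 TPM in wild type, 583, 691, 703 and 650 TPM in *slmyb60Cr1*, and 527, 553, 641 and 595 TPM in *slmyb60Cr2*. All libraries of both lines lay below all of wild type. Taken singly, this was so for 5.87% of all genes tested in *slmyb60Cr1* and for 4.96% in *slmyb60Cr2*. The log2 fold change was −0.63 ± 0.12 (SE, adjusted p = 0.0309, limma) and −0.81 ± 0.12 (adjusted p = 0.00518). The call in *slmyb60Cr2* held in all 12 fits that left out a library, and that in *slmyb60Cr1* was lost without replicate 2, 3 or 4 of wild type (adjusted p = 0.0818, 0.0825 and 0.0893) or of *slmyb60Cr1* (0.0584, 0.0551 and 0.0920).

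Solyc01g097340 was at 32.7, 41.1, 44.1 and 43.3 TPM in wild type, 22.9, 25.8, 31.0 and 25.3 TPM in *slmyb60Cr1*, and 23.2, 26.8, 32.7 and 31.7 TPM in *slmyb60Cr2*. All libraries of both lines lay below all of wild type, as for 5.87% (*slmyb60Cr1*) and 4.96% (*slmyb60Cr2*) of all genes tested in each line alone. The highest of *slmyb60Cr2* (32.68 TPM, replicate 3) was just under the lowest of wild type (32.69 TPM, replicate 1). The log2 fold changes of −0.61 ± 0.13 (SE, adjusted p = 0.0473, limma) and −0.50 ± 0.13 (adjusted p = 0.0469) sat at the threshold. In each line 8 of the 12 fits that left out a library lost the call, in *slmyb60Cr1* without replicate 2, 3 or 4 of wild type, 1, 2 or 4 of *slmyb60Cr1* or 2 or 4 of *slmyb60Cr2*, and in *slmyb60Cr2* without replicate 2, 3 or 4 of wild type, 2 or 4 of *slmyb60Cr1* or 1, 2 or 4 of *slmyb60Cr2*. The adjusted p reached 0.131 and 0.121. The other 7 loci of ascorbate synthesis did not pass the test in either line.

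The locus that rose was Solyc03g095180, 1 of the 5 further superoxide dismutases. It was at 6.39, 6.20, 7.57 and 7.34 TPM in wild type, 7.52, 10.1, 8.28 and 8.47 TPM in *slmyb60Cr1*, and 10.5, 10.8, 11.2 and 10.7 TPM in *slmyb60Cr2*. All libraries of *slmyb60Cr2* lay above those of wild type, as for 11.4% of all genes tested, and above those of *slmyb60Cr1*, as for 7.79%. The log2 fold change was 0.65 ± 0.10 in *slmyb60Cr2* (SE, adjusted p = 0.00539, limma), a call that held in all 12 fits that left out a library, and 0.31 ± 0.10 in *slmyb60Cr1* (adjusted p = 0.129). The difference between the lines did not pass the test (0.33 ± 0.10, adjusted p = 0.148).

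**Figure D5:**
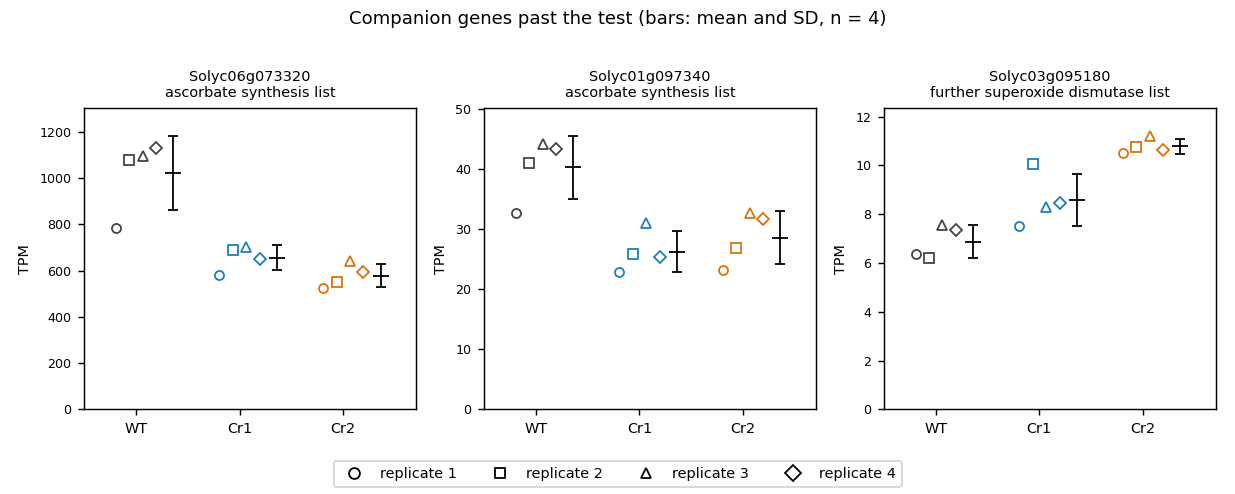
TPM (linear axis from 0) of the 3 companion loci past the test, per library of wild type (WT), slmyb60Cr1 (Cr1) and slmyb60Cr2 (Cr2), with symbols for replicate number and black bars for the mean and SD of 4 libraries. The ascorbate synthesis loci Solyc06g073320 and Solyc01g097340 are lower in both lines, and Solyc03g095180 is higher in slmyb60Cr2.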

How the data were processed

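Leaf RNA of 12 libraries was sequenced (paired reads of 150 bp) and grouped by the genotype and replicate number in the labels. The authors trimmed the reads, quantified the ITAG transcripts with Salmon and deposited TPM values per gene and library, without pooling replicates, while their own tests used DESeq2 on the Salmon estimates. Every column sums to 1000000. TPM keeps no depth, so no count model was run and intervals for counting error were not computed.

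Values were transformed as log2(TPM + 0.1), and genotype effects were fitted jointly over the 12 libraries in limma 3.58.1 (R 4.3.3), whose prior variance followed mean expression. A gene entered the fit when 4 or more libraries reached 0.5 TPM, which held for 21218 genes and left 12758 out, and p-values were adjusted over all that entered (Benjamini-Hochberg). The replicate number was tested by an F test after genotype. *SlMYB60* was compared by an exact permutation test and pairs of loci by permutation (scipy 1.17.1, numpy 2.4.6), and figures were drawn with matplotlib 3.10.9. Scripts were tested on simulated data. The members and lists were chosen with earlier results of these data known. The named genes were all members, *SlMYB60*, companion loci past the adjusted threshold in either line, and the most similar member of each member; markers are named with the values they touch. The alternatives tried were other pseudocounts, TPM limits, scalings, variance models, a replicate block, fits of only the compared groups, and leaving out each library. No sequences are shown, as no identifier could be matched to the reference tables used here.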

Additional observations from a re-analysis of the deposited data

Results flagged for a closer look

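Among 33 groups of 4 libraries examined for a library far from the others, 1 stood out. Catalase Solyc04g082460 in *slmyb60Cr2* was at 3.38 TPM in replicate 1, whereas the next library was at 2.62 TPM, so that the gap took 0.922 of the range of the group. Chance marks about 1 in 20 groups in this way.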

How the results depend on the processing

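*SlMYB60* stayed below wild type and past the threshold under all 23 alternatives in both lines. No result past the threshold reversed. Among the catalase, ascorbate peroxidase and superoxide dismutase loci, the count past the adjusted threshold (limma) in *slmyb60Cr1* was 0 except for 1 with library quality weights (Solyc02g082760, −0.31, adjusted p = 0.0484). In *slmyb60Cr2* it was 1 with quantile normalization (Solyc09g007270, −1.06, adjusted p = 0.0485), 2 with library quality weights (Solyc02g082760, −0.41, adjusted p = 0.00942, and Solyc06g005150, 0.41, adjusted p = 0.0291) and 0 to 1 when a library was left out. Between the lines it was 0 throughout. Estimates short of the threshold changed sign 12, 15 and 7 times in the respective comparisons. For the replicate number, the count of 1 became 0 without the trend, 2 with library quality weights and 0 to 1 when a library was left out. The quality weights also raised the calls among all genes from 358, 1573 and 108 to 1529, 2800 and 311, and fits of only the compared groups lowered them to 188, 1306 and 11. Of the ascorbate synthesis loci, Solyc06g073320 in *slmyb60Cr1* and Solyc01g097340 in both lines lost their calls when only the compared groups were fitted (adjusted p = 0.0745, 0.0686 and 0.0680) and with median of ratios scaling (0.0526, 0.0791 and 0.0587). Solyc01g097340 also lost them with no TPM limit, quantile normalization or no trend (0.0553 to 0.0627). Their direction did not change under any alternative. The causes were not tested.

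The labels do not say what the replicate number marks, and it was not taken to pair the samples, since the deviations of same-numbered libraries correlated by over 0.1 in 8 of 12 pairs and not in all (−0.05 to 0.44). The mean correlation was 0.19 for the same number and −0.06 for different numbers, and 5 of 12 libraries correlated best with their own number. The first principal component of all genes tested (26.4% of the variance) did separate the replicate numbers in every genotype. Its scores were −72.2 to −10.8 in replicates 1 and 2 and 12.7 to 54.6 in replicates 3 and 4. With the replicate number as a block, 0 members were called in *slmyb60Cr1* and 1 in *slmyb60Cr2* (Solyc09g007270, −0.89, adjusted p = 0.0420, limma). Calls among all genes were 695, 2306 and 183. Of the 10 members, those at an unadjusted p below 0.05 went from 1, 3 and 2 to 5, 3 and 4. The share of all genes tested went from 17.1%, 23.1% and 14.5% to 22.2%, 27.9% and 18.8%. The calls of Solyc01g097340 held with the block (adjusted p = 0.00411 and 0.00543). Companion calls with the block were 2 and 4, the added one being the glycolate oxidase locus Solyc07g056540 in *slmyb60Cr2* (−0.53, adjusted p = 0.0277). Depth is unknown from TPM, and 4 libraries a group limit the precision.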
